A study of Homo sapiens with 12 samples.

Results

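The genes described here are the 39 genes of rod and cone phototransduction and of the outer segment that were named for this work and found by symbol among the 19974 Ensembl genes of the deposited count table. By textbook knowledge 8 were assigned to rods, 13 to cones and 18 to both cell types. RNA was sequenced from 2 established human retinoblastoma lines, WERI-Rb-1 (WERI below) and Y79, both with the genotype given as WT, after 12 h with 50 nM THZ1, a covalent inhibitor of the kinase CDK7, or with 0.1% DMSO. Each of the 4 groups had 3 cultures, so there were 12 libraries, and each line is a single established tumour line. The study asked how THZ1 alters transcription in such cells. CDK7 phosphorylates RNA polymerase II and other kinases.

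Rods and cones turn light into an electrical signal with a shared cascade built from largely separate sets of genes. A photon changes the shape of an opsin, the opsin activates the G protein transducin, and transducin releases the inhibitory subunit from phosphodiesterase 6, which then breaks down cGMP and lets cGMP-gated cation channels close. Opsin kinases, arrestins, a GTPase accelerator, calcium sensors and guanylate cyclases switch the response off and restore cGMP, and all of this takes place in the outer segment, a stack of membrane discs or folds. Retinoblastoma is a childhood tumour of the developing retina whose cells often carry genes of the cone lineage.

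Total counts ran from 29677575 to 37433574 per library. Levels are counts-per-million after TMM scaling (CPM), a scaling that assumes that most genes do not change. Changes are log2 fold changes ± SE from edgeR's quasi-likelihood test over all 12 libraries, and a gene is called higher or lower at an adjusted p under 0.05. The scaling chosen sets the sign of many values. The median log2 change over the 14865 Ensembl genes tested was -0.11 in WERI and -0.09 in Y79 with TMM, -0.56 and -0.65 with total counts alone, and -2.01 and -1.80 when libraries were scaled on the 13 mitochondrial mRNAs. "Rose" and "fell" below are therefore relative to the other genes in the same library. The second THZ1 library of Y79 stood apart from the other 2 of its group, and without it the genes whose THZ1 change differed between the lines went from 1299 to 2161 higher and from 1965 to 3029 lower in Y79.

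The labelled cell type was checked on 9 photoreceptor regulators. CRX, OTX2, NEUROD1, RXRG and RORB were present in every group, with CRX at 275 CPM in WERI and 465 CPM in Y79 under DMSO. NRL, the factor that commits cells to the rod fate, was at 3.91 CPM in WERI and 49.1 CPM in Y79 under DMSO, and NR2E3, which acts downstream of it, was at 0.209 and 9.22 CPM. THRB, which supports the long- and medium-wavelength cone fate, was at 579.7 and 61.1 CPM. Y79 thus had more RNA of NRL and NR2E3 (log2 difference 3.65 and 5.44) and less THRB (-3.25). PRDM1, the remaining regulator, was at 118 CPM in WERI and 4.62 CPM in Y79 under DMSO (log2 difference -4.67, adjusted p = 5.42e-13). Of the 9, 3 were called higher and 5 lower in Y79, where 32.3% of all genes were called higher and 32.6% lower.

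A pair of sequence sets shows what some of these genes share and what the counting could confuse. The first set is the 150 bases before the transcription start of 4 members that carry TAATCC, the core word of the homeodomain factor CRX, on either strand (RefSeq, GRCh38.p14, printed 5′ to 3′ on the gene's own strand with the word, TAATCC or its reverse complement GGATTA, in capitals). They are shown because they come from rod and cone genes that moved in different ways after THZ1: PDE6A and CNGB1 rose in both lines, PDE6C fell in both, and OPN1SW was called in neither. PDE6A lies on the minus strand at chr5:149944794-149944943, CNGB1 on the minus strand at chr16:57971129-57971278, PDE6C on the plus strand at chr10:93612387-93612536 and OPN1SW on the minus strand at chr7:128775795-128775944.
PDE6A: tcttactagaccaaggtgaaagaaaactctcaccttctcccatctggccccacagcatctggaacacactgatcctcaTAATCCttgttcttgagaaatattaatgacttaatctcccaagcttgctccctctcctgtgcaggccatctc
CNGB1: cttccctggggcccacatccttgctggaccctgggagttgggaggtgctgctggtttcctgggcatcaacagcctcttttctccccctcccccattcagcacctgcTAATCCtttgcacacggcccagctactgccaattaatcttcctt
PDE6C: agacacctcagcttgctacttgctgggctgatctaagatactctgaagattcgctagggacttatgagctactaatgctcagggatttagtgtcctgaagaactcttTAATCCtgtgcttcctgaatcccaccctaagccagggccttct
OPN1SW: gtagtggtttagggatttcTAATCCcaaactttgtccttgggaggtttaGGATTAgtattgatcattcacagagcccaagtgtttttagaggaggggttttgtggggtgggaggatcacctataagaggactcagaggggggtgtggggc

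RefSeq promoter entries were found for 29 of the 39 members, with 35 start sites among them. In the 250 bases before the start, TAATCC was found on either strand at 7 of 35 starts (20%), against 5.62% of all 35116 starts in the table. The 7 members were PDE6A, CNGB1 and SAG of rods, PDE6C and OPN1SW of cones, and GUCA1A and GUCY2F of both. The word began 44 bases before the start in CNGB1 and SAG, 43 in PDE6C and 72 in PDE6A, while OPN1SW held it 131 bases before the start and its reverse complement 101 bases before. A half-site of the rod factor NRL, TGCTGA on either strand, was found at 5 of 9 rod starts (55.6%), 1 of 11 cone starts (9.09%), 3 of 15 starts of genes of both (20%) and 14% of all starts. Neither word contains the other or its reverse complement, several starts belong to 1 gene, and a match describes letters only.

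The second set is a stretch of exon 5 of the long-wavelength opsin OPN1LW and the medium-wavelength opsin OPN1MW, neighbours on the X chromosome. Their coding sequences are both 1092 bases long in GENCODE v29 and differ at 20 bases (98.17% identical). The 60 bases below, coding bases 794 to 853 at chrX:154156343-154156402 and chrX:154193457-154193516 on the plus strand, hold 8 of those differences, which are in capitals. They are shown because reads from most other parts of the 2 genes look alike, so that the split of counts between them is uncertain and their sum is given as well.
OPN1LW: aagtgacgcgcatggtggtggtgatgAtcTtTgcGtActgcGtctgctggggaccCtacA
OPN1MW: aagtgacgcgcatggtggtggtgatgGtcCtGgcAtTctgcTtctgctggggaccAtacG

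After THZ1, more of the 35 members with enough counts to test rose than fell relative to other genes. The 2 called lower in WERI were cone genes, as were 5 of the 8 called lower in Y79. Those 5 include OPN1LW and OPN1MW, near-identical copies, and GNAT2, whose reads cannot be told apart by strand from those of GNAI3. ARR3 is another, and its call was lost without any 1 of 5 of the 6 Y79 libraries. The other 3 that fell in Y79, PRPH2, GUCA1B and RP1, were genes of both cell types. In WERI 20 members were called higher and 2 lower, where 27.7% of all tested genes were called higher and 37.2% lower. In Y79 17 were called higher and 8 lower, against 29.9% and 38.5% of all genes. The members' median log2 change was 0.49 in WERI and 0.58 in Y79, which lay 0.61 and 0.67 above the median of all genes. These gaps were 0.61 and 0.66 with total counts alone and 0.61 and 0.67 with mitochondrial mRNA scaling. A scaling shifts all genes of a library alike, so the gaps could hardly change with it. Many of the calls were not kept. Total counts alone gave 11 higher and 4 lower in WERI and 6 higher and 13 lower in Y79. Of all 14865 genes, 2221 were then called higher and 7961 lower in WERI, and 2175 and 8334 in Y79. Mitochondrial scaling gave 0 higher in both lines with 31 and 30 lower. All genes called higher and lower were then 111 and 13328 in WERI and 283 and 12188 in Y79. Of the members called with TMM, 13 were higher in both lines, 2 (PDE6C and GNAT2) were lower in both, and 3 (ARR3, GUCA1B and PRPH2) were higher in WERI and lower in Y79. In a bulk sample, fewer cells of a type and less RNA per cell cannot be told apart.

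**Figure D1:**
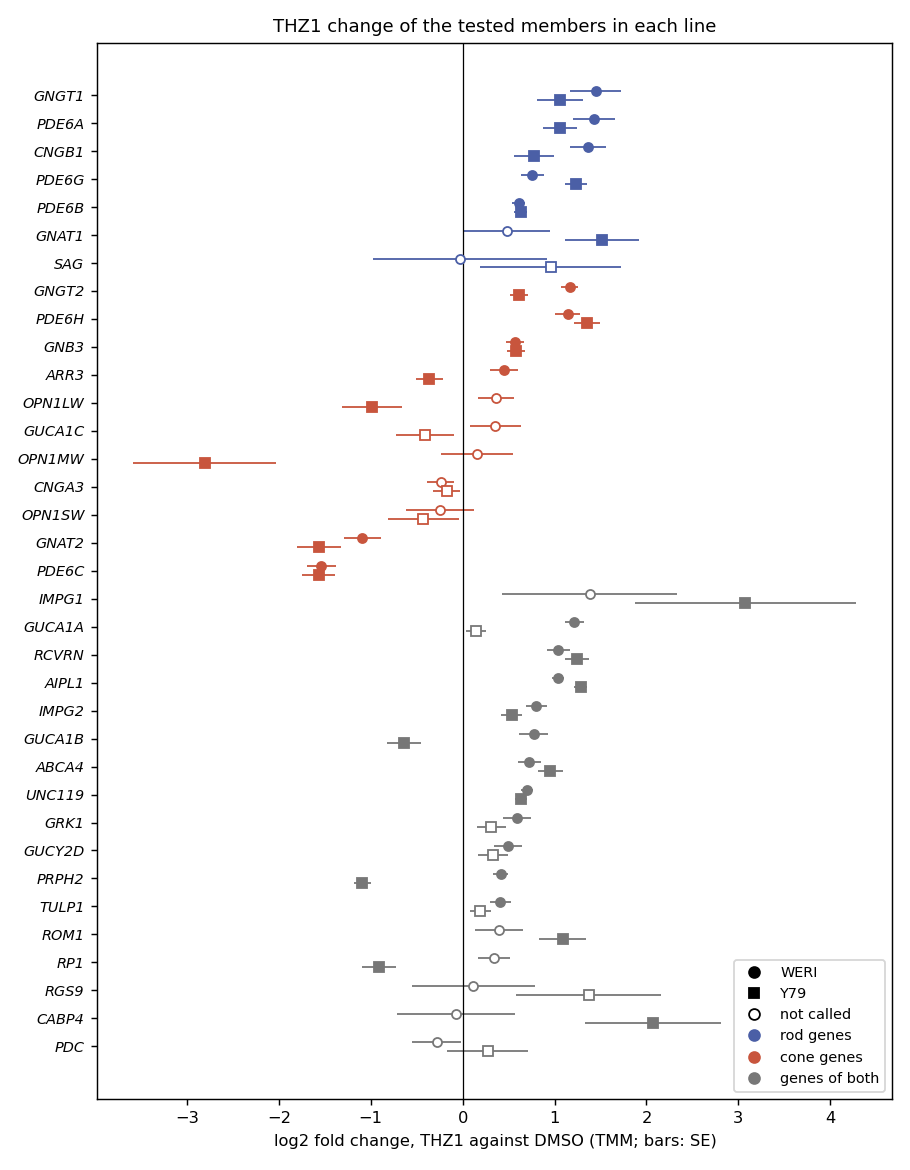
Log2 fold change after THZ1 against DMSO (x axis, TMM scaling, bars are SE) of the 35 tested members in WERI (circles) and Y79 (squares), coloured by rod, cone or both; filled symbols passed an adjusted p under 0.05. The rod genes sit at or above 0 except for SAG in WERI, whereas the cone genes spread from PDE6H and GNGT2 on the right to PDE6C, GNAT2 and, in Y79, OPN1MW on the left; with total counts alone the symbols of WERI and Y79 all shift to the left, the median gene to -0.56 and -0.65.

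The rod genes form the cascade from rod transducin to the rod channel. Of the 7 tested, 5 rose and 0 fell in WERI (median log2 change 0.76), and 6 rose and 0 fell in Y79 (median 1.06), again set against 27.7% and 29.9% of all genes called higher. With total counts alone 4 stayed called higher in WERI (CNGB1, GNGT1, PDE6A and PDE6G) and 2 in Y79 (GNAT1 and PDE6G), and with mitochondrial scaling none did. All 7 lay above the median gene in both lines. A change of scaling shifts all genes of a library alike, so it could hardly alter that position.

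GNAT1, the rod transducin α subunit that binds GTP, was scarce. The WERI libraries held 0.164, 0.316 and 0.304 CPM under DMSO and 0.315, 0.271 and 0.518 CPM after THZ1. The groups overlapped in WERI (0.48 ± 0.467, adjusted p = 0.394). Y79 had 1.14, 1.03 and 0.818 CPM under DMSO and 1.88, 4.36 and 2.37 CPM with THZ1. All 3 treated Y79 libraries were above the controls (1.52 ± 0.399, adjusted p = 0.00423), the second the highest.

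GNGT1 is the γ subunit of rod transducin. GNGT1 stood at 1.10, 1.02 and 1.20 CPM in WERI under DMSO and at 2.97, 3.25 and 2.86 CPM after THZ1. Levels in Y79 were 4.49, 4.84 and 5.10 CPM in DMSO and 8.66, 15.2 and 6.32 CPM in THZ1. The treated libraries were all above the controls in both lines, with changes of 1.45 ± 0.276, adjusted p = 0.000408 in WERI and 1.06 ± 0.254, adjusted p = 0.00225 in Y79. Without THZ1 library 2 of Y79 the Y79 value was 0.61 (adjusted p = 0.0175), and the difference between the lines was then called (-0.81, adjusted p = 0.0496). Its exons overlap TFPI2 on the opposite strand by 44 bases, 1.86% of their length.

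PDE6A, PDE6B and PDE6G are the 2 catalytic subunits and the inhibitory subunit of rod phosphodiesterase. PDE6A (chromosome 5, 149857955 to 149944793, minus strand) showed the widest gap between the lines among rod genes. Under DMSO WERI had 0.962, 0.925 and 1.80 CPM, and after THZ1 it had 2.76, 3.52 and 3.73 CPM. In Y79 the DMSO libraries had 18.2, 16.3 and 16.1 CPM and the THZ1 libraries 40.3, 29.2 and 35.8 CPM. It rose in both lines without overlap of the groups, by 1.43 ± 0.233, adjusted p = 0.000103 in WERI and 1.06 ± 0.190, adjusted p = 0.000215 in Y79.

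PDE6B had the highest level per kilobase among the rod genes. The WERI libraries held 89.1, 100.1 and 94.4 CPM under DMSO and 149.9, 143 and 140.0 CPM after THZ1. Y79 had 56.3, 52.9 and 56.4 CPM under DMSO and 78.1, 89.8 and 88.6 CPM with THZ1. No treated library overlapped its controls, and the log2 changes were 0.61 ± 0.0715, adjusted p = 4.47e-06 in WERI and 0.63 ± 0.0724, adjusted p = 3.05e-06 in Y79. An antisense transcript annotated in GENCODE overlaps 11.7% of its exons.

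PDE6G went the same way. PDE6G stood at 4.50, 4.94 and 4.37 CPM in WERI under DMSO and at 7.42, 7.49 and 8.42 CPM after THZ1. Levels in Y79 were 12.7, 12.4 and 13.6 CPM in DMSO and 27.3, 35.6 and 28.2 CPM in THZ1. Its changes were 0.76 ± 0.125, adjusted p = 0.000122 and 1.23 ± 0.119, adjusted p = 5.43e-07, and the gap between the lines of 0.48 ± 0.172, adjusted p = 0.0715 was not called. With Ensembl genes only (0.50, adjusted p = 0.0432) and with mitochondrial scaling (0.67, adjusted p = 0.0399) it was called.

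CNGB1 encodes the modulatory subunit of the rod cGMP-gated channel. Under DMSO WERI had 4.62, 5.16 and 5.09 CPM, and after THZ1 it had 10.7, 14.5 and 13.1 CPM. In Y79 the DMSO libraries had 1.35, 1.73 and 1.69 CPM and the THZ1 libraries 2.38, 3.63 and 2.20 CPM. It rose by 1.36 ± 0.197, adjusted p = 3.49e-05 in WERI and 0.78 ± 0.215, adjusted p = 0.00608 in Y79, with all treated libraries above the controls. Without THZ1 library 2 of Y79 the Y79 value was 0.50 (adjusted p = 0.0442), and the difference between the lines was then called (-0.83, adjusted p = 0.025). The partner subunit CNGA1 had at most 6 counts in any library, 16 in all 12, and was not tested.

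SAG, rod arrestin, which caps the activated receptor, had 0 to 32 counts per library. Its values of -0.03 ± 0.945, adjusted p = 0.989 in WERI and 0.96 ± 0.768, adjusted p = 0.298 in Y79 were not called, and the SE leaves room for changes of either sign.

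Cone genes did not move as a block. Of the 11 tested, 4 rose and 2 fell in WERI (median 0.36), and 3 rose and 5 fell in Y79 (median -0.41), where 27.7% of all genes were called higher and 37.2% lower in WERI and 29.9% and 38.5% in Y79. GNB3, GNGT2 and PDE6H rose in both lines, and PDE6C and GNAT2 fell in both. With total counts alone only GNGT2 and PDE6H stayed called higher in WERI and only PDE6H in Y79. PDE6C and GNAT2 were called lower in both lines under all 4 scalings. With mitochondrial scaling such a call says little, because 13328 of the 14865 genes in WERI and 12188 in Y79 were then called lower. The reads of GNAT2 cannot be told apart by strand from those of GNAI3, so its counts may include some of GNAI3.

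PDE6C, the catalytic subunit of cone phosphodiesterase, lies on chromosome 10, 93612588 to 93666010, plus strand. The WERI libraries held 18.9, 17.9 and 19.8 CPM under DMSO and 6.33, 7.42 and 5.69 CPM after THZ1. Y79 had 4.04, 3.24 and 3.42 CPM under DMSO and 1.08, 1.02 and 1.50 CPM with THZ1. Every treated library was below every control of its line, with changes of -1.54 ± 0.158, adjusted p = 1.21e-06 in WERI and -1.57 ± 0.184, adjusted p = 3.88e-06 in Y79. The difference between the lines was -0.03 ± 0.223, adjusted p = 0.978.

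PDE6H, the inhibitory subunit that holds PDE6C inactive in the dark, moved the other way. PDE6H stood at 28.1, 28.8 and 28.2 CPM in WERI under DMSO and at 60.3, 60.0 and 67.6 CPM after THZ1. Levels in Y79 were 16.8, 20.5 and 19.1 CPM in DMSO and 39.8, 62.0 and 42.8 CPM in THZ1. Its changes were 1.14 ± 0.138, adjusted p = 6.16e-06 in WERI and 1.36 ± 0.141, adjusted p = 1.1e-06 in Y79, again without overlap. Per kilobase of exon, the level of PDE6H in WERI went from 38.0 ± 0.502 to 83.8 ± 5.72 CPM per kb while that of PDE6C went from 5.71 ± 0.282 to 1.96 ± 0.264 CPM per kb. In Y79 the same levels went from 25.2 ± 2.55 to 64.6 ± 16.1 for PDE6H and from 1.08 ± 0.128 to 0.362 ± 0.0786 CPM per kb for PDE6C. Both subunits of cone phosphodiesterase were thus measured in the same libraries with opposite changes relative to other genes, as seen in the plot of library values, except with mitochondrial scaling, where the values of PDE6H were below 0 as well (log2 -0.76 and -0.36).

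**Figure D2:**
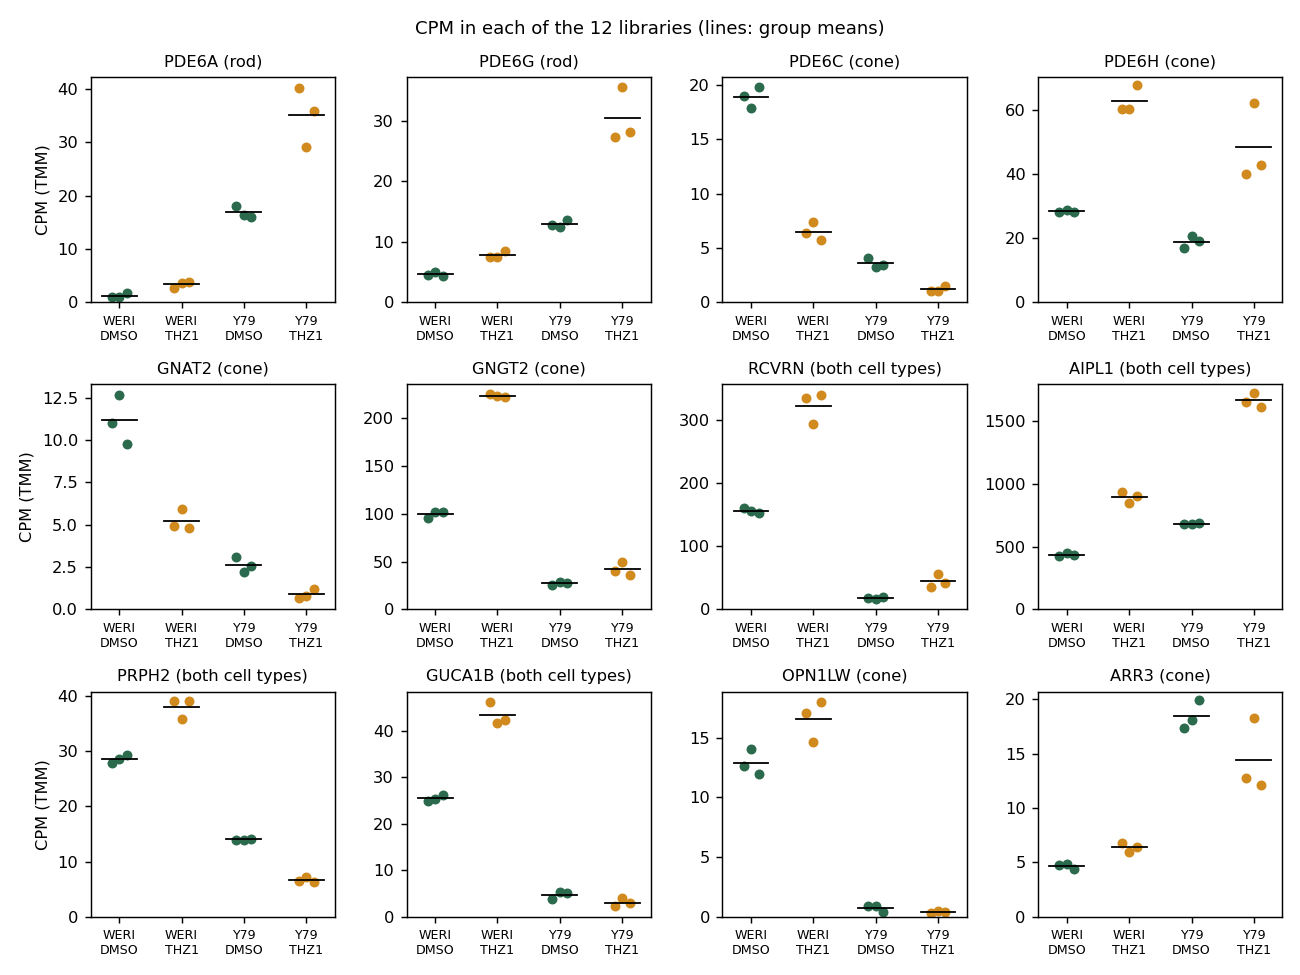
TMM-scaled CPM (y axes, linear from 0) of 12 members in each library, grouped by line and treatment (x axis), with short lines at group means. In both lines PDE6C and GNAT2 have all treated libraries below the controls and PDE6A, PDE6G, PDE6H, GNGT2, RCVRN and AIPL1 have them above, while PRPH2, GUCA1B, OPN1LW and ARR3 have higher treated means in WERI and lower ones in Y79.

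GNAT2, the α subunit of cone transducin, also fell. Under DMSO WERI had 11.0, 12.7 and 9.76 CPM, and after THZ1 it had 4.93, 5.93 and 4.83 CPM. In Y79 the DMSO libraries had 3.11, 2.23 and 2.55 CPM and the THZ1 libraries 0.649, 0.823 and 1.21 CPM. The changes were -1.09 ± 0.205, adjusted p = 0.000356 in WERI and -1.56 ± 0.241, adjusted p = 5.5e-05 in Y79, with the groups apart. All 1339 bases of its exons (100%) lie inside exons of GNAI3 on the opposite strand, and the library kit does not keep strand. GNAI3 had many more counts, with 295 and 175 CPM in WERI and 173 and 56.0 CPM in Y79 under DMSO and THZ1. GNAI3 fell as well (log2 -0.75 and -1.63). Reads of the 2 genes cannot be told apart by strand, and how the counting assigned them is not given.

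GNB3 is the transducin β subunit of cones. The WERI libraries held 284, 313 and 298 CPM under DMSO and 447, 422 and 459.6 CPM after THZ1. Y79 had 562, 540.2 and 573 CPM under DMSO and 774, 991 and 747 CPM with THZ1. The groups did not overlap, and the changes were 0.57 ± 0.0973, adjusted p = 0.000157 in WERI and 0.58 ± 0.0972, adjusted p = 0.000112 in Y79. CDCA3 overlaps 17.1% of its exons on the opposite strand and changed by log2 -0.76 and -1.27.

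GNGT2, the cone γ subunit, rose in both lines but by more in WERI. GNGT2 stood at 95.2, 102 and 101 CPM in WERI under DMSO and at 225, 222 and 221 CPM after THZ1. Levels in Y79 were 26.0, 28.9 and 27.6 CPM in DMSO and 40.2, 49.8 and 36.3 CPM in THZ1. The changes of 1.16 ± 0.0928, adjusted p = 1.04e-07 and 0.61 ± 0.0958, adjusted p = 6.39e-05 differed by -0.55 ± 0.133, adjusted p = 0.0109 (Y79 minus WERI), a call lost with mitochondrial scaling. In each line the lowest treated library was above the highest control. ABI3 overlaps 7.76% of its exons on the opposite strand and fell (log2 -1.92 and -1.80).

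The long- and medium-wavelength opsins diverged between the lines. For OPN1LW in WERI, the 3 DMSO libraries had 12.6, 14.0 and 12.0 CPM and the 3 THZ1 libraries 17.0, 14.7 and 18.0 CPM. Under DMSO Y79 had 0.927, 0.903 and 0.409 CPM, and after THZ1 it had 0.289, 0.484 and 0.374 CPM. The WERI value of 0.36 ± 0.200, adjusted p = 0.136 was not called although the groups did not overlap, and the Y79 change was -0.98 ± 0.325, adjusted p = 0.0166, with groups that overlapped. In WERI it was called higher with the 6 WERI libraries alone (0.37, adjusted p = 0.00516) and with DESeq2 (0.44, adjusted p = 0.0342), and with total counts alone its value was below 0. That Y79 call was lost without DMSO library 1, without DMSO library 2 or without THZ1 library 1 of Y79 (adjusted p 0.0601 to 0.0721), and also when only the 6 Y79 libraries were fitted. OPN1MW had 35, 7 and 20 counts under DMSO and 5, 0 and 0 after THZ1 in Y79, and in WERI the 3 DMSO libraries had 6.90, 7.86 and 5.61 CPM and the 3 THZ1 libraries 7.52, 7.93 and 7.18 CPM. It was not called in WERI (0.15 ± 0.391, adjusted p = 0.762) and fell in Y79 (-2.81 ± 0.774, adjusted p = 0.00587), where 2 of 3 treated libraries had none and the other overlapped the controls in CPM. Without that library, THZ1 library 1, the treated group had no counts, and the fitted values of -7.13 in Y79 and -7.26 for the difference between the lines are no bounds.

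Because reads can be assigned to either copy, the summed counts were tested as an alternative chosen after seeing the data. The sum of OPN1LW and OPN1MW had 833, 900 and 808 counts under DMSO and 702, 667 and 729 after THZ1 in WERI, and 74, 43 and 37 under DMSO and 13, 10 and 9 after THZ1 in Y79. Its log2 change was 0.29 ± 0.168 (adjusted p = 0.15) in WERI and -1.49 ± 0.277 (adjusted p = 0.000301) in Y79, and these differed by -1.78 ± 0.325 (adjusted p = 0.00205). The summed Y79 counts did not overlap between the groups. For the single genes the same difference between lines was -1.35 ± 0.382, adjusted p = 0.0256 for OPN1LW and -2.96 ± 0.880, adjusted p = 0.0325 for OPN1MW, and each of these 2 calls was lost when any 1 of 8 of the 12 libraries was left out. For OPN1LW those were DMSO libraries 1 and 3 and THZ1 libraries 1 and 3 of WERI, and DMSO libraries 1 and 2 and THZ1 libraries 1 and 3 of Y79 (adjusted p 0.0511 to 0.0750). For OPN1MW they were DMSO libraries 1 and 3 and all THZ1 libraries of WERI, and DMSO libraries 1 and 3 and THZ1 library 3 of Y79 (adjusted p 0.0555 to 0.0890). The difference for OPN1LW was also not called with mitochondrial scaling (-1.15, adjusted p = 0.0568).

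OPN1SW, the short-wavelength opsin, was low in both lines, at 1.27 CPM in WERI and 0.941 CPM in Y79 under DMSO. Its log2 values of -0.25 ± 0.368, adjusted p = 0.59 and -0.43 ± 0.387, adjusted p = 0.354 were not called. Without THZ1 library 2 of Y79 the Y79 value was called, at -0.99 (adjusted p = 0.0458), and with total counts alone it was called as well (-1.02, adjusted p = 0.0251).

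ARR3, cone arrestin, is one of the members with opposite signs. In WERI the DMSO libraries had 4.79, 4.84 and 4.39 CPM and the THZ1 libraries 6.82, 5.93 and 6.38 CPM. The Y79 libraries held 17.3, 18.1 and 19.9 CPM under DMSO and 12.8, 18.3 and 12.1 CPM after THZ1. The groups did not overlap in WERI (0.45 ± 0.154, adjusted p = 0.022), whereas in Y79 the second treated library lay inside the range of the controls (-0.36 ± 0.147, adjusted p = 0.0451). The Y79 call was lost without any 1 of 5 of the 6 Y79 libraries, the exception being THZ1 library 2, without which the value was -0.60 (adjusted p = 0.000456, against 0.0548 to 0.167 for the others), and with RLE factors, with Ensembl genes only, with the 6 Y79 libraries alone and with DESeq2. The WERI call was lost without DMSO library 3, THZ1 library 1 or THZ1 library 3 of WERI (adjusted p 0.0515 to 0.0767). The difference of -0.81 ± 0.213, adjusted p = 0.0177 was called under every setting tried except mitochondrial scaling.

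The remaining cone genes were not called with TMM or had too few counts. CNGA3, the main subunit of the cone cGMP-gated channel, had log2 values of -0.24 ± 0.142, adjusted p = 0.16 in WERI and -0.18 ± 0.147, adjusted p = 0.318 in Y79, and GUCA1C, the calcium sensor GCAP3, had 0.36 ± 0.276, adjusted p = 0.285 and -0.41 ± 0.314, adjusted p = 0.277. CNGA3 was called lower with total counts alone in WERI (-0.69, adjusted p = 0.00333) and in Y79 (-0.72, adjusted p = 0.0028), and GUCA1C in Y79 (-0.98, adjusted p = 0.011). The median gene was then at -0.56 in WERI and -0.65 in Y79, with 7961 and 8334 of 14865 genes called lower. CNGA3 was also called lower in WERI with the 6 WERI libraries alone (-0.23, adjusted p = 0.00804) and in Y79 without THZ1 library 3 of that line (-0.36, adjusted p = 0.0384), and leaving out 1 Y79 library at a time gave Y79 values from -0.36 to -0.02. CNGB3, the partner of CNGA3, had at most 9 counts in a library and the opsin kinase GRK7 at most 4. Each of these 2 had counts too low to test.

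Genes that work in both cell types rose in more cases than they fell. Of the 17 tested, 11 rose and 0 fell in WERI (median 0.59), and 8 rose and 3 fell in Y79 (median 0.54), against the same 27.7% and 37.2% of all genes in WERI and 29.9% and 38.5% in Y79. With total counts alone AIPL1, GUCA1A, IMPG2, RCVRN and UNC119 kept their calls as higher in WERI and ABCA4, AIPL1 and RCVRN in Y79, and with mitochondrial scaling none did.

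RCVRN encodes recoverin, the calcium sensor that restrains the opsin kinase in the dark. WERI had 161, 156 and 153 CPM under DMSO and 334, 293 and 339.9 CPM with THZ1. RCVRN stood at 18.9, 17.4 and 20.2 CPM in Y79 under DMSO and at 36.0, 56.1 and 41.7 CPM after THZ1. The treated libraries were above all controls in each line, by 1.04 ± 0.124, adjusted p = 5.23e-06 in WERI and 1.24 ± 0.131, adjusted p = 1.29e-06 in Y79. Under each treatment every Y79 library lay below every WERI library.

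AIPL1, a chaperone needed to fold phosphodiesterase 6, had the second highest level per kilobase of all members in WERI and in Y79 under DMSO. Levels in WERI were 428, 452 and 431 CPM in DMSO and 935, 851 and 904 CPM in THZ1. Under DMSO Y79 had 685, 679 and 689 CPM, and after THZ1 it had 1656, 1729 and 1614 CPM. Its changes were 1.04 ± 0.0679, adjusted p = 1.68e-08 and 1.28 ± 0.0682, adjusted p = 1.6e-09, with groups apart in both lines. The gap between the lines, 0.25 ± 0.0950, adjusted p = 0.088, was not called, but was called without THZ1 library 2 of Y79 (0.22, adjusted p = 0.0154), with DESeq2 and with Ensembl genes only.

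IMPG2, a proteoglycan of the matrix around the outer segments, also had high counts. In WERI the DMSO libraries had 576, 538 and 568 CPM and the THZ1 libraries 977, 981 and 974 CPM. The Y79 libraries held 1052, 1072 and 1018 CPM under DMSO and 1735, 1172 and 1646 CPM after THZ1. It rose by 0.80 ± 0.115, adjusted p = 3.13e-05 in WERI and 0.54 ± 0.114, adjusted p = 0.000927 in Y79, with no overlap between the groups. IMPG1, its relative in the same matrix, had few counts, with 14, 7 and 21 counts under DMSO and 25, 20 and 28 after THZ1 in WERI and 0, 6 and 0 counts under DMSO and 0, 16 and 14 after THZ1 in Y79. The call in Y79 (3.08 ± 1.21, adjusted p = 0.0385) was lost without DMSO library 1, DMSO library 3, THZ1 library 2 or THZ1 library 3 of that line (adjusted p 0.0941 to 0.116), and with total counts alone. Without DMSO library 2 the Y79 controls had no counts, and the fitted value of 6.91 is no bound. In WERI IMPG1 had 1.38 ± 0.955, adjusted p = 0.231 and was called with the 6 WERI libraries alone (1.39, adjusted p = 0.0168).

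TULP1 and UNC119 help carry proteins to the outer segment. For TULP1 in WERI, the 3 DMSO libraries had 158, 169.7 and 158 CPM and the 3 THZ1 libraries 219.8, 212 and 215 CPM. Y79 had 139, 129.7 and 138 CPM under DMSO and 135, 194 and 137 CPM with THZ1. The change was 0.41 ± 0.111, adjusted p = 0.00547 in WERI, while in Y79 the groups overlapped (0.19 ± 0.111, adjusted p = 0.147), and the Y79 value was not called. It was called higher with RLE factors (0.30, adjusted p = 0.0383), with Ensembl genes only (0.30, adjusted p = 0.0226) and with DESeq2 (0.30, adjusted p = 0.0346). It was called lower with total counts alone (-0.39, adjusted p = 0.000919), where the median gene in Y79 was at -0.65. The difference between the lines, -0.22 ± 0.157, adjusted p = 0.382, was called without THZ1 library 2 of Y79 (-0.41, adjusted p = 0.000203). UNC119 rose by 0.70 ± 0.0639, adjusted p = 4.02e-07 in WERI and 0.63 ± 0.0637, adjusted p = 7.99e-07 in Y79.

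ABCA4, the transporter that clears retinal from disc membranes, rose in both lines (0.73 ± 0.124, adjusted p = 0.000157 in WERI and 0.95 ± 0.136, adjusted p = 2.65e-05 in Y79). GUCY2D, the guanylate cyclase that remakes cGMP, rose in WERI (0.49 ± 0.156, adjusted p = 0.0139), a call lost without DMSO library 3 (adjusted p = 0.0501), and had 0.33 ± 0.163, adjusted p = 0.0962 in Y79. The opsin kinase GRK1 rose in WERI (0.59 ± 0.152, adjusted p = 0.00369) and had 0.31 ± 0.159, adjusted p = 0.101 in Y79. Without THZ1 library 2 both GRK1 (adjusted p = 0.000901) and GUCY2D (adjusted p = 0.034) were called higher in Y79, GUCY2D also without DMSO library 3 (adjusted p = 0.00897), and both were called with DESeq2, RLE factors and Ensembl genes only as well.

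ROM1 is a tetraspanin of the disc rim. ROM1 stood at 2.23, 3.04 and 1.74 CPM in WERI under DMSO and at 3.32, 2.24 and 3.62 CPM after THZ1. Levels in Y79 were 3.76, 4.69 and 4.21 CPM in DMSO and 8.80, 11.4 and 6.78 CPM in THZ1. It rose in Y79 with no overlap of the groups (1.09 ± 0.253, adjusted p = 0.00176) and was not called in WERI (0.39 ± 0.261, adjusted p = 0.216). EML3, on the opposite strand, overlaps 7.95% of its exons and rose too (log2 0.83 and 1.10). CABP4, a calcium-binding protein of the photoreceptor synapse, had 4, 0 and 7 counts under DMSO and 13, 8 and 7 after THZ1 in Y79. Its Y79 call (2.07 ± 0.742, adjusted p = 0.0252) was lost without DMSO library 1, DMSO library 2 or THZ1 library 1 of Y79 (adjusted p 0.0517 to 0.0774), and with total counts alone. In WERI CABP4 had 20, 17 and 21 counts under DMSO and 11, 13 and 13 after THZ1 (-0.07 ± 0.638, adjusted p = 0.937). GPR152, on the opposite strand, overlaps 8.07% of its exons and had 0, 0 and 0 counts under DMSO and 10, 4 and 14 after THZ1 in Y79. The kit does not keep strand, so reads from the shared bases cannot be told apart by strand.

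PDC, phosducin, which binds the transducin βγ pair, and RGS9, the GTPase accelerator that ends the response, were called in neither line with TMM. PDC had -0.28 ± 0.269, adjusted p = 0.389 in WERI and 0.27 ± 0.440, adjusted p = 0.686 in Y79, and RGS9 had 0.12 ± 0.666, adjusted p = 0.897 and 1.37 ± 0.788, adjusted p = 0.146. PDC was called lower in WERI with total counts alone (-0.73, adjusted p = 0.0248), where the median gene was at -0.56. GUCY2F, the second retinal guanylate cyclase, had 0 counts in all 12 libraries, which allows up to 3 counts in each.

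The THZ1 change differed between the lines for 8 of the 35 tested members, each time lower in Y79 than in WERI, and for 0 in the other direction. Over all genes 13.2% were called lower and 8.74% higher in this difference. Besides ARR3, GNGT2 and the opsins they were PRPH2, GUCA1B, GUCA1A and RP1.

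PRPH2, peripherin, the partner of ROM1 at the disc rim, moved in opposite directions in the 2 lines. Under DMSO WERI had 27.9, 28.6 and 29.2 CPM, and after THZ1 it had 39.2, 35.8 and 39.2 CPM. In Y79 the DMSO libraries had 13.9, 14.0 and 14.1 CPM and the THZ1 libraries 6.42, 7.12 and 6.24 CPM. The treated WERI libraries were all above and the treated Y79 libraries all below their controls, by 0.41 ± 0.0816, adjusted p = 0.000542 and -1.09 ± 0.0888, adjusted p = 9.43e-08, a difference of -1.50 ± 0.121, adjusted p = 1.03e-05. With total counts alone the WERI value was -0.04.

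GUCA1B and GUCA1A encode the calcium sensors GCAP2 and GCAP1, which turn on guanylate cyclase when calcium falls. The 2 genes are neighbours on chromosome 6, GUCA1A at 42155406 to 42180056 on the plus strand and GUCA1B at 42184401 to 42194916 on the minus strand. The WERI libraries held 24.8, 25.3 and 26.2 CPM under DMSO and 46.2, 41.7 and 42.2 CPM after THZ1. Y79 had 3.78, 5.22 and 5.03 CPM under DMSO and 2.20, 4.07 and 2.87 CPM with THZ1. GUCA1B rose in WERI (0.77 ± 0.153, adjusted p = 0.000573) and fell in Y79 (-0.64 ± 0.183, adjusted p = 0.00761), a difference of -1.41 ± 0.239, adjusted p = 0.00125; the Y79 call was lost when only the 6 Y79 libraries were fitted (adjusted p = 0.0613), and the groups overlapped in Y79. For GUCA1A in WERI, the 3 DMSO libraries had 23.0, 26.6 and 25.2 CPM and the 3 THZ1 libraries 55.2, 60.0 and 58.1 CPM. GUCA1A stood at 12.8, 13.3 and 13.9 CPM in Y79 under DMSO and at 14.9, 16.9 and 12.4 CPM after THZ1. GUCA1A rose in WERI (1.21 ± 0.104, adjusted p = 2.06e-07) and was not called in Y79 (0.14 ± 0.108, adjusted p = 0.273), with a difference of -1.07 ± 0.149, adjusted p = 0.000338. In Y79 it was called lower with total counts alone (-0.43, adjusted p = 0.00132), where the median gene was at -0.65. With Ensembl genes only it was called higher in Y79 (0.25, adjusted p = 0.0475). Another annotated gene, AL096814.1, shares 29.4% of GUCA1A's exons on the same strand and had 0 counts.

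RP1 is a microtubule protein of the outer segment axoneme. Levels in WERI were 5.61, 6.13 and 6.22 CPM in DMSO and 6.79, 9.32 and 6.66 CPM in THZ1. Under DMSO Y79 had 5.63, 5.09 and 5.03 CPM, and after THZ1 it had 3.07, 2.28 and 2.99 CPM. It was not called in WERI (0.34 ± 0.174, adjusted p = 0.106), fell in Y79 (-0.91 ± 0.183, adjusted p = 0.000557) with the groups apart, and the difference was -1.26 ± 0.252, adjusted p = 0.00383. In WERI it was called higher with RLE factors (adjusted p = 0.0446), Ensembl genes only and DESeq2.

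Under DMSO the 2 lines differed in most members. Relative to WERI, 10 members were higher and 20 lower in Y79 (median -0.999), where 32.3% of all genes were called higher and 32.6% lower. Of the 7 rod genes 4 were higher and 2 lower in Y79 (median 1.70), and of the 11 cone genes 2 were higher and 8 lower (median -1.54). Genes of both had 4 of 17 higher and 10 lower (median -1.03).

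Among rod genes Y79 had more PDE6A (log2 3.76 ± 0.225, adjusted p = 5.12e-09), GNGT1 (2.12 ± 0.274, adjusted p = 1.34e-05), GNAT1 (1.91 ± 0.435, adjusted p = 0.0017) and PDE6G (1.49 ± 0.124, adjusted p = 1.58e-07). It had less PDE6B (-0.78 ± 0.0720, adjusted p = 4.89e-07) and CNGB1 (-1.64 ± 0.208, adjusted p = 1.13e-05), so the rod genes did not all go one way. Among cone genes Y79 had less OPN1LW (-4.10 ± 0.244, adjusted p = 4.73e-09), OPN1MW (-3.76 ± 0.465, adjusted p = 9.49e-06), PDE6C (-2.40 ± 0.163, adjusted p = 1.81e-08) and GNAT2 (-2.08 ± 0.211, adjusted p = 1.22e-06), and more ARR3 (1.98 ± 0.153, adjusted p = 7.41e-08) and GNB3 (0.90 ± 0.0977, adjusted p = 2.28e-06). PDC had the widest gap of all members, -4.74 ± 0.346, adjusted p = 3.95e-08, followed among genes of both by RCVRN at -3.05 ± 0.135, adjusted p = 2.33e-10.

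**Figure D3:**
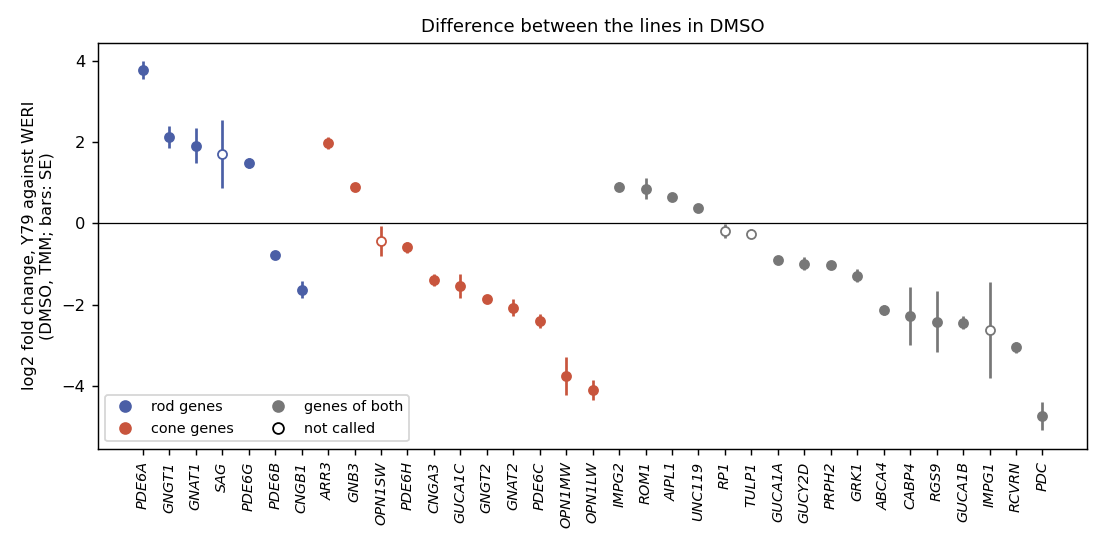
Log2 fold change of Y79 against WERI under DMSO (y axis, TMM scaling, bars are SE) for the 35 tested members, ordered within rod, cone and both; filled symbols passed an adjusted p under 0.05. PDE6A at the left reaches 3.76, OPN1LW is the lowest cone gene at -4.10 and PDC at the right is at -4.74.

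Paralogs of the 2 cell types can be set side by side only per length of exon. The length used joins all annotated exons of a gene, and which transcripts were expressed was not examined. For the transducin α subunits, the level under DMSO in WERI was 0.108 ± 0.0350 CPM per kb for rod GNAT1 and 8.33 ± 1.09 for cone GNAT2, and in Y79 0.412 ± 0.0677 and 1.97 ± 0.333. After THZ1 these levels were 0.152 ± 0.0544 and 3.91 ± 0.453 CPM per kb in WERI, and 1.19 ± 0.544 and 0.667 ± 0.213 in Y79. In the treated Y79 cells the rod form had the higher mean, by less than 1 SD of GNAT1. The GNAT2 counts may include reads of GNAI3, from which they cannot be told apart by strand.

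For the γ subunits the rod form GNGT1 was the lower of the pair in each group, with DMSO levels of 0.469 ± 0.0369 against 58.8 ± 2.14 CPM per kb for GNGT2 in WERI and 2.04 ± 0.130 against 16.3 ± 0.847 in Y79. The inhibitory subunits of phosphodiesterase showed the same order, with PDE6G at 2.91 ± 0.188 and PDE6H at 38.0 ± 0.502 CPM per kb in WERI under DMSO, and 8.15 ± 0.405 and 25.2 ± 2.55 in Y79. Of the catalytic subunits, rod PDE6B led in each line under DMSO, at 27.6 ± 1.62 and 16.1 ± 0.570 CPM per kb. PDE6A and PDE6C swapped places, with PDE6A at 0.218 ± 0.0882 and PDE6C at 5.71 ± 0.282 CPM per kb in WERI and at 2.99 ± 0.201 and 1.08 ± 0.128 in Y79.

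Among the arrestins SAG was below ARR3 in all 4 groups, with levels of 0.0892 ± 0.0575 against 3.17 ± 0.166 CPM per kb in WERI and 0.293 ± 0.200 against 12.5 ± 0.909 in Y79 under DMSO. Of the channel subunits only CNGA3 and CNGB1 were above the floor of the test, at 15.2 ± 0.431 and 0.782 ± 0.0460 CPM per kb in WERI and 5.77 ± 0.318 and 0.251 ± 0.0324 in Y79 under DMSO. The kinase GRK1 stood at 5.75 ± 0.644 and 2.35 ± 0.176 CPM per kb, and GRK7 had at most 4 counts.

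Summed over genes, the 8 rod genes went from 107 ± 6.14 to 172 ± 2.99 CPM (SD, n = 3) in WERI and from 92.8 ± 2.43 to 168 ± 10.1 CPM in Y79, and PDE6B alone makes up most of these sums. The 13 cone genes went from 547 ± 21.1 to 828 ± 21.9 CPM in WERI and from 656 ± 16.3 to 967 ± 151 CPM in Y79. Without GNB3 the cone sum went from 249 ± 6.30 to 385 ± 6.19 CPM in WERI and from 98.0 ± 3.67 to 129.8 ± 17.2 CPM in Y79. These sums were described without a test. With total counts alone their log2 changes were 0.24 and 0.28 for rod genes and 0.15 and -0.02 for cone genes in WERI and Y79, against 0.69 and 0.85 and 0.60 and 0.56 with TMM, and with mitochondrial scaling all 4 were below 0.

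A share within a library does not depend on the scaling. Rod genes made up 16.3 ± 0.261% of the rod and cone counts in WERI under DMSO and 17.2 ± 0.577% after THZ1, and 12.4 ± 0.194% and 14.9 ± 1.22% in Y79 (SD, n = 3). The groups overlapped in WERI and did not overlap in Y79. Without the 2 dominant genes PDE6B and GNB3 the rod share was 4.72 ± 0.191% and 6.65 ± 0.502% in WERI and 27.8 ± 1.09% and 38.8 ± 1.67% in Y79. Leaving out these 2 genes was chosen after their levels were seen, and it turns the order of the lines around.

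**Figure D4:**
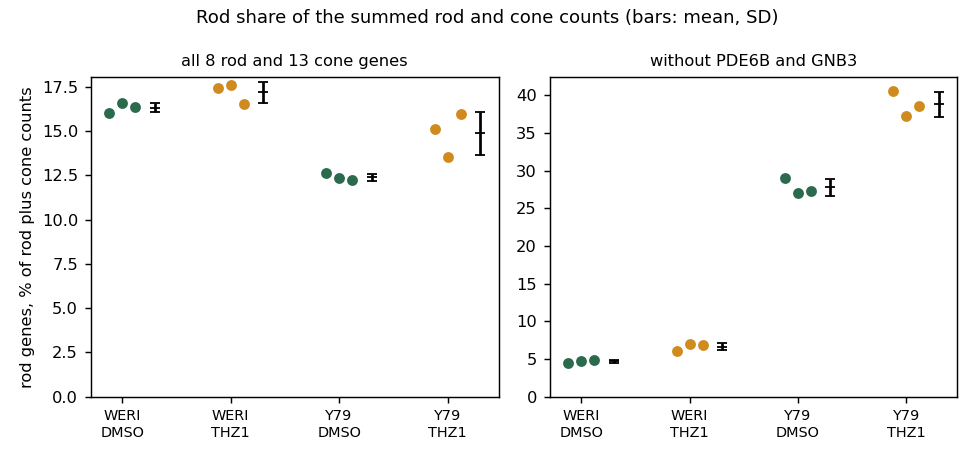
Rod gene counts as a percentage of the counts of rod and cone genes together (y axes, from 0) in each library by line and treatment (x axis), over all 8 rod and 13 cone genes on the left and without PDE6B and GNB3 on the right; bars are the mean and SD of 3 libraries. On the left WERI lies above Y79 under DMSO (16.3% against 12.4%), and on the right Y79 lies above WERI (27.8% against 4.72%).

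Other genes of photoreceptors went both ways. Of 30 further genes of the cascade, the visual cycle, the cilium and the outer segment, 28 were tested. In WERI 8 rose and 10 fell, and in Y79 9 rose and 10 fell, near the 27.7% and 37.2% and the 29.9% and 38.5% of all genes. RBP3, the retinoid carrier of the space around the outer segments, fell in both lines, from 503 ± 21.9 to 244 ± 23.0 CPM (SD, n = 3) in WERI (log2 -1.04 ± 0.0960, adjusted p = 4.17e-07) and from 197 ± 11.3 to 20.8 ± 2.89 CPM in Y79 (-3.24 ± 0.107, adjusted p = 3.65e-11). PDE6D, which binds the lipid tails of phosphodiesterase subunits for transport, fell too (-1.70 ± 0.175, adjusted p = 1.27e-06 and -2.23 ± 0.179, adjusted p = 8.11e-08). EYS, a protein that keeps the photoreceptor outer segment intact, rose in both (1.93 ± 0.183, adjusted p = 8.01e-07 and 1.49 ± 0.179, adjusted p = 6.4e-06).

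The axonemal RP1L1 fell in both lines (-1.67 ± 0.105, adjusted p = 1.18e-08 in WERI and -1.44 ± 0.0966, adjusted p = 1.34e-08 in Y79), and the scaffold MPP4 rose in both (1.03 ± 0.303, adjusted p = 0.00936 and 1.52 ± 0.383, adjusted p = 0.00322). RDH12, a retinal reductase with under 1 CPM in each group mean, was called lower in WERI (-2.05 ± 0.847, adjusted p = 0.0498) and had -1.68 ± 0.976, adjusted p = 0.151 in Y79. The reductase RDH8 was called lower in Y79 (-3.14 ± 1.00, adjusted p = 0.0162) and had 0, 0 and 1 counts under DMSO and 0, 0 and 0 after THZ1 in WERI, too few to compare. The actin bundler FSCN2 was called higher in Y79 (1.76 ± 0.496, adjusted p = 0.00666) and had 1.00 ± 0.483, adjusted p = 0.0908 in WERI. In Y79 the group means of MPP4, RDH8 and FSCN2 were under 3 CPM. Of the 9 regulators, 6 fell and 2 rose in WERI, and 7 fell and 0 rose in Y79, where 37.2% of all genes fell and 27.7% rose in WERI and 38.5% and 29.9% in Y79. CRX fell by 0.61 and 0.31 on the log2 scale, OTX2 by 1.53 and 1.94 and THRB by 2.04 and 2.36 in WERI and Y79, while NRL rose in WERI (0.77 ± 0.133, adjusted p = 0.000177) and was not called in Y79 (adjusted p = 1).

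Markers of other cell types were measured in the same libraries. The summed level of 10 stroma and blood genes ran from 26.5 to 30.7 CPM under DMSO and 59.1 to 61.9 CPM after THZ1 in WERI, and from 10.5 to 13.8 and 29.9 to 46.5 CPM in Y79, with the endothelial gene CDH5 at 0 in the treated group of both lines. The sum of 13 inner retinal neuron genes was between 133 and 143 CPM under DMSO and between 179 and 189 CPM after THZ1 in WERI. In Y79 the same sum was between 97.0 and 103 CPM and then between 159 and 183 CPM, and TFAP2B was at 0 in all groups. The 7 Müller glia genes summed to 219 to 227 CPM under DMSO and 227 to 243 CPM after THZ1 in WERI, and to 687 to 694 and 541 to 620 CPM in Y79. The 7 pigment epithelium genes summed to 5.50 to 13.1 CPM under DMSO and 8.88 to 41.8 CPM after THZ1 in WERI, and to 5.94 to 11.7 and 15.1 to 45.9 CPM in Y79, with TYR at 0 throughout. After THZ1 most of that sum was BEST1, which scattered widely between cultures (824, 165 and 1107 counts in WERI, 1149, 214 and 248 in Y79). BEST1 was called in neither line. Single genes weighed heavily in the other sums too. GLUL was at 499 and 444 CPM in Y79 under DMSO and THZ1, and GRM6 at 50.3 and 93.7 CPM in WERI. COL1A1 had log2 changes of 1.08 and 1.10 in WERI and Y79. In WERI 3 of 8 tested stroma and blood genes rose, as did 2 of 9 inner neuron genes, 1 of 5 glia genes and 0 of 5 epithelium genes. In Y79 4 of 8, 5 of 9, 1 of 5 and 1 of 5 rose, and of all genes 27.7% rose in WERI and 29.9% in Y79. In both lines 1 inner neuron gene fell, 1 glia gene fell in WERI and 2 in Y79, and 0 stroma and blood or epithelium genes fell in either. The part of these cell types in the members' changes was not tested.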

How the data were processed

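RNA-seq counts per gene were available for 12 libraries of 2 lines, with 3 cultures in each of 4 groups. The deposited table holds whole-number counts with no normalization by the authors that the values show. Per the labels' protocols the kit was NEBNext Ultra RNA, an unstranded chemistry, and per the submitters' processing notes Cufflinks and GRCh38 were used. Version, aligner and counting rules: not given in the sources used here. Cultures are called biological repeats in the design text. The p-values thus rest on the spread between cultures within groups, shared over the 4 groups of both lines. They do not measure a spread between tumours.

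The tests ran in edgeR 4.0.16 under R 4.3.3: filterByExpr, TMM, glmQLFit (robust) and glmQLFTest, two-sided, 1 mean per group and no replicate block, with Benjamini-Hochberg adjustment over all tested features and calls under 0.05. SE is the absolute log2 change divided by the square root of F. Features numbered 27505, of which 19974 were Ensembl genes and 7531 unannotated loci. Annotation, exon lengths and positions came from GENCODE v29, promoters from RefSeq. Floors of 3 counts cover counting error only. With each group's mean taken out of the log2 levels, same-numbered libraries of different groups correlated between -0.04 and 0.05 over 18 pairs. Differently numbered libraries gave -0.06 to 0.08. The check thus gave no sign that the numbers pair samples.

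Members and lists were chosen with earlier results of these data known. Values in every library are given for members called with an absolute log2 change of 1 or more in either line, called in the difference between lines, or among the 6 with the highest mean CPM, and for a few paralogs beside them. Other pathway genes are named where called with a change of that size, up to 6 per line, and some of them are not reported here. Alternatives were RLE factors, total counts alone, scaling on 13 mitochondrial mRNAs, no low count filter, Ensembl genes only, a replicate block, the 6 libraries of 1 line, leaving out each library, DESeq2 1.42.0 and, chosen after seeing the data, the summed long- and medium-wavelength opsin counts.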

Additional observations from a re-analysis of the deposited data

Results flagged for a closer look

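For 8 members the THZ1 change differed between the lines by edgeR's test of the difference itself, with the change lower in Y79 each time. The log2 differences (Y79 minus WERI) were -2.96 for OPN1MW, -1.50 for PRPH2, -1.41 for GUCA1B, -1.35 for OPN1LW, -1.26 for RP1, -1.07 for GUCA1A, -0.81 for ARR3 and -0.55 for GNGT2. The 2 opsin values come from near-identical genes, and each of their calls was lost without any 1 of 8 of the 12 libraries. With mitochondrial scaling the calls of OPN1LW, ARR3 and GNGT2 were lost. Of all genes, 13.2% were called lower in this difference.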

How the results depend on the processing

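Scaling mattered most. With total counts alone members called higher and lower were 11 and 4 in WERI and 6 and 13 in Y79. All genes called higher and lower were then 2221 and 7961 in WERI, 2175 and 8334 in Y79, and 740 and 2696 in the difference. Some members called under either scaling went from above 0 to below it. They were ARR3 -0.000244, PRPH2 -0.0362 and TULP1 -0.0381 in WERI and GUCA1A -0.43, IMPG2 -0.0151 and TULP1 -0.39 in Y79. The summed rod genes then changed by 0.24 in WERI and 0.28 in Y79 and the summed cone genes by 0.15 and -0.0166. RLE factors gave 0.77 and 0.96 for rod genes and 0.68 for cone genes in WERI. Mitochondrial scaling gave members called higher and lower of 0 and 31 in WERI and 0 and 30 in Y79, with 2 higher and 5 lower in the difference, all genes of 111 higher and 13328 lower in WERI, 283 and 12188 in Y79 and 713 lower in the difference, 2706 genes higher in Y79 under DMSO, and summed changes of -1.21 and -0.86 for rod and -1.30 and -1.15 for cone genes in WERI and Y79. Of the members called under either scaling, it turned these log2 values below 0 in WERI: GNAT1 -1.41, GNGT1 -0.44, PDE6A -0.47, PDE6B -1.28, PDE6G -1.14, CNGB1 -0.53, OPN1LW -1.54, OPN1MW -1.74, GNB3 -1.33, GNGT2 -0.73, PDE6H -0.76, ARR3 -1.45, GUCA1C -1.55, RCVRN -0.86, GUCA1A -0.68, GUCA1B -1.13, IMPG2 -1.09, RP1 -1.54, AIPL1 -0.86, ROM1 -1.52, PRPH2 -1.49, TULP1 -1.49, UNC119 -1.20, ABCA4 -1.16, GUCY2D -1.40, GRK1 -1.30 and RGS9 -1.74. In Y79 they were GNAT1 -0.19, GNGT1 -0.65, PDE6A -0.65, PDE6B -1.08, PDE6G -0.47, CNGB1 -0.93, GNB3 -1.12, GNGT2 -1.10, PDE6H -0.36, RCVRN -0.47, GUCA1A -1.57, IMPG2 -1.18, AIPL1 -0.43, ROM1 -0.63, TULP1 -1.52, UNC119 -1.08, ABCA4 -0.75, GUCY2D -1.37, GRK1 -1.40 and PDC -1.41. The cause of these shifts was not tested beyond the change of scale.

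Of the other settings, the 6 Y79 libraries alone gave 4 members called lower in Y79. Members higher in the difference were 2 with Ensembl genes only and 1 with DESeq2. Leaving out 1 library gave 18 to 20 members higher and 2 lower in WERI, 15 to 18 higher and 6 to 9 lower in Y79, 9 to 10 and 19 to 21 between the lines, and 0 to 1 and 6 to 11 in the difference, for which all genes ranged from 889 to 2161 higher and 1437 to 3029 lower. The replicate block lost the Y79 calls of ARR3 (-0.37, adjusted p = 0.0555) and IMPG1 (3.01, adjusted p = 0.0627) and changed no other member's call in any comparison. Skipping the low count filter changed no call of a tested member. Depth limits SAG, IMPG1, CABP4, RGS9 and the 4 untested members most.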
